A study of Mus musculus with 2 samples.

Results

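The genes described here are 44 factors of DNA replication, from the helicase that opens the double strand to the enzymes that seal it, supply nucleotides and package the new DNA. They were chosen by name, with no measured value in the rule, although earlier results of these data were known. In both libraries 44 of 44 were listed, among 18366 gene symbols listed in either. Their levels were followed across single cells of mouse gliomas, brain tumours of glial character. The tumours were induced in C57BL/6 mice by transferring PDGFB, a growth factor that acts on the receptor Pdgfra, into the cells lining the embryonic brain ventricles in utero, and were collected about 40 days after birth. Tumour cells were dissociated and enriched by sorting for GFP. Each of the 2 libraries, here pool 1 and pool 2, held cells of 2 tumours mixed before capture. Both pools belong to 1 group with the same genotype, strain and age, with no untreated control, so every comparison below is between cells of the same pools. The labels do not assign cells to tumours, and the sample titles join identifiers of which one pair differs between the pools in its last letter only, with no statement on shared animals.

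Replication starts where the origin recognition complex, Cdc6 and Cdt1 load the ring-shaped Mcm helicase on DNA, and Cdc45 and the GINS proteins turn it into the active helicase. Polymerase alpha with primase lays down primers, polymerases delta and epsilon extend them on the sliding clamp Pcna, which the Rfc complex loads, and Rpa coats the single strands in between. Many of these genes are transcribed as cells enter S phase under E2F transcription factors, and single-cell studies use them to find dividing cells.

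Promoter sequence was available for 35 of the 44 genes in a RefSeq table of the build GRCm38.p6, as a window from 250 bases before to 50 bases after the transcription start. The letters TTTCCCGC, TTTCGCGC, TTTGCCGC and TTTGGCGC, forms of the E2F motif, were searched on both strands, and overlapping matches were counted separately. At least 1 match was found in 14 of the 35 genes (40.0%), against 704 of 27025 genes in the table (2.61%). The table was not limited to expressed genes or to promoters of like base content. The 200 bases before the start are printed 5′ to 3′ in the direction of transcription, with matches in capitals, for 3 genes with a match and 3 with none in the window, since these include both a helicase subunit with several matches and Rrm1, which had the smallest difference between S and mitosis state cells. The windows lie at chr8:75109309-75109508 (+ strand) for Mcm5, chr1:128359706-128359905 (- strand) for Mcm6, chrX:93632156-93632355 (- strand) for Pola1, chr6:88898781-88898980 (- strand) for Mcm2, chr7:102441495-102441694 (+ strand) for Rrm1 and chr5:30073626-30073825 (- strand) for Tyms.
Mcm5: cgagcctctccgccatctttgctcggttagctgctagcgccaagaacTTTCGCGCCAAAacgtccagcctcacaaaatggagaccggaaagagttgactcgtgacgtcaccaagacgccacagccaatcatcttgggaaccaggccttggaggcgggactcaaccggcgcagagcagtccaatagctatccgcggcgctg
Mcm6: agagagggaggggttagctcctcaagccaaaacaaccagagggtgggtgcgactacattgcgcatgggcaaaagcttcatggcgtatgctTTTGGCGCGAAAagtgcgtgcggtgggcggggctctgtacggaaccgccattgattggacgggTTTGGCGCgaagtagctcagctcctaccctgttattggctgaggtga
Pola1: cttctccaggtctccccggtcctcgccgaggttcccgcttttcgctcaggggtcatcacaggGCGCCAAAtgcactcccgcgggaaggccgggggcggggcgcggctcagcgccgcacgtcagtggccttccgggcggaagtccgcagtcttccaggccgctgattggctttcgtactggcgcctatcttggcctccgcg
Mcm2: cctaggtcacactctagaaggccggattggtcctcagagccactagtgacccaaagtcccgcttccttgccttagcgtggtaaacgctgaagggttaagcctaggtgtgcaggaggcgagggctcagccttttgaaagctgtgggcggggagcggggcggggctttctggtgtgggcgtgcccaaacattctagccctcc
Rrm1: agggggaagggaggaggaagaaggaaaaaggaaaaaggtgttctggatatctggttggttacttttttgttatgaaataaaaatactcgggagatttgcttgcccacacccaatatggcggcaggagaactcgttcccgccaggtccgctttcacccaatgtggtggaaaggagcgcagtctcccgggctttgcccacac
Tyms: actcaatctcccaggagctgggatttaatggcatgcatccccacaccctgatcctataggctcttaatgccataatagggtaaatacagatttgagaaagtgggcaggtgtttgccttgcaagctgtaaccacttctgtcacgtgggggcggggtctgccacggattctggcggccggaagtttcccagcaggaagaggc

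In Mcm6 the motif was matched 3 times, at 110 and 106 bases before the start on opposite, overlapping strands and again at 47 bases. In Mcm5 it was matched by 2 overlapping forms at 153 and 149 bases before the start, and in Pola1 by 1 form at 138 bases. Mcm2, Rrm1 and Tyms had no match to these letters from 250 bases before to 50 bases after the start. The other genes with a match were Mcm3, Mcm7, Cdc6, Cdt1, Pold1, Pold3, Rfc3, Lig1, Uhrf1, Hells and Clspn. The letters CCAAT, the core of another promoter motif, were found in 22 of 35 (62.9%) against 41.1% of the genes in the table, and TTTGAA, a motif known from mitosis genes, in 4 of 35 (11.4%) against 20.2%. These are matches of letters and not measured binding.

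Pool 1 held 3843 cell barcodes with 33.9 M unique molecular identifiers (UMIs, counted molecules) and pool 2 held 3650 with 40.9 M. Filters on genes per cell and mitochondrial UMIs left 3506 and 3278 cells, whose median depth was 7440 and 11272 UMIs, and 4 barcodes occurred in both pools. The 6 markers of oligodendrocyte precursors (Pdgfra, Cspg4, Olig1, Olig2, Sox10, Ptprz1) were detected in every cluster, with summed levels of 3729 to 11928 CPM (UMIs scaled to a common library total) in the 10 clusters large enough to test. Smaller clusters of microglia-like, oligodendrocyte-like and astrocyte-like cells had 1726, 2536 and 6756 CPM, so detection alone does not mark precursors. Levels are 3′ UMI counts, so they are compared between cells for the same gene and not between genes.

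To see where in the cell cycle the replication genes were expressed, cells were placed in states by genes outside the 44. S state cells had UMIs of at least 2 of 16 other S phase genes (such as Tk1 and Ccne2) and at most 1 of 14 mitosis genes (such as Ube2c, Ccnb1 and Plk1). Mitosis state cells had the reverse, cells with both states had at least 2 of each, and cells in neither state had none of the 30 genes. Each count was divided at random, so that states were called in one part, at 2000 UMIs per cell. Levels by state were measured, and tests made, in the held-out part. S state cells made up 6.62% of the 2358 cells deep enough in pool 1 (156 cells, exact 95% interval 5.65 to 7.70%) and 5.15% of 2445 in pool 2 (126 cells, 4.31 to 6.11%). The mitosis state held 241 and 173 cells (10.2% and 7.08%), both states 146 and 105 (6.19% and 4.29%), and neither state 1276 and 1524 (54.1% and 62.3%). Intervals cover counting error only.

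Cells in the S state had higher levels of the 44 replication genes than cells in neither state. The summed level of the 44 genes was 839.9 and 797 CPM in neither state cells of pool 1 and pool 2, 5364 and 4910 CPM in the S state, 5896 and 6263 CPM with both states, and 1923 and 1761 CPM in the mitosis state. Each of the 44 genes was higher in the S state, with its lowest S state pool above its highest neither state pool, and 44 of 44 passed the test (edgeR's quasi-likelihood test, Benjamini-Hochberg adjusted p under 0.05), where 9.08% of the 10951 genes tested were called higher and 4.05% lower. The median log2 difference was 3.04 over the 44 genes, from 1.10 (Rpa3) to 5.96 (Esco2), and -0.02 over the genes tested. S state cells were also deeper, at a median of 15780 and 17496 UMIs, than neither state cells, at 10441.5 and 13053 UMIs, and the part of depth in the result was not tested.

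Genes detected per cell were counted at an equal 2000 UMIs, in the same thinned part that states were called in. A median of 8 and 7 of the 44 genes had a UMI in an S state cell of pool 1 and pool 2, 9 and 10 in a cell with both states, 2 and 2 in the mitosis state, and 1 and 1 in neither state. In all counts, without thinning, the medians were 28 and 32 in the S state, 31 and 33 with both states, 11 and 12 in the mitosis state and 5 and 6 in neither state. In microglia-like cells, immune cells that are not part of the tumour lineage, the medians at 2000 UMIs were 1 and 0 (4 and 10 cells). The ranges overlapped, since single S state cells had from 0 to 22 genes and neither state cells from 0 to 15.

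**Figure D1:**
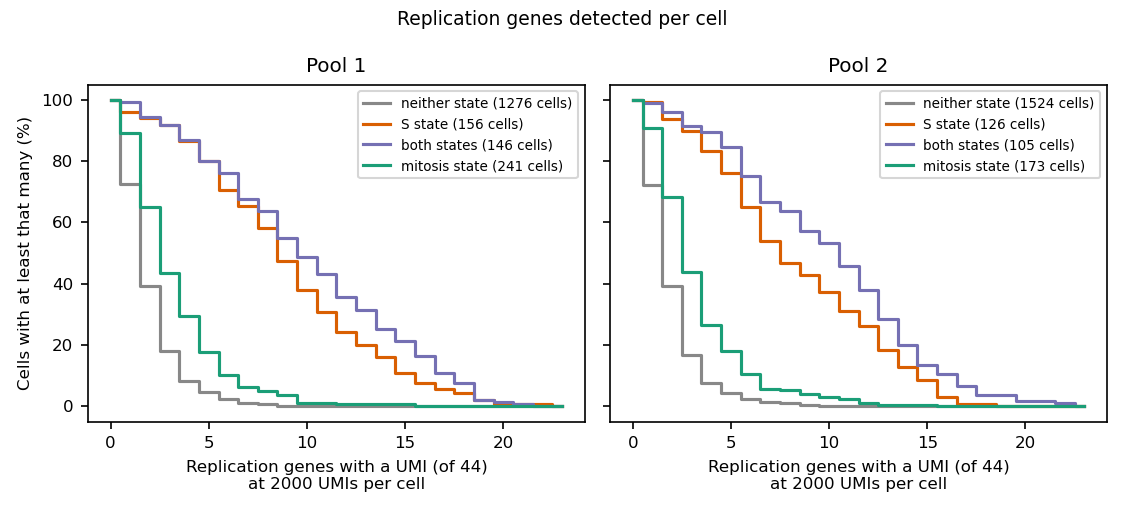
Share of cells (y axis, percent) in which at least the given number of the 44 replication genes had a UMI (x axis), for each state in pool 1 and pool 2. Counts are those of the part that states were called in, thinned to 2000 UMIs. The curves of the S state and of both states lie far to the right of the neither state in each pool, with medians of 7 to 10 genes against 1, and the mitosis state lies close to the neither state with a median of 2.

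The 12 genes of helicase loading and activation had a median log2 difference of 3.87 between S and neither state cells, and 12 of 12 were higher. Cdc6, the loader that brings the helicase to origins (chr11:98907801-98923940), was at 1.5 and 1.17 CPM in neither state cells of pool 1 and pool 2 and at 47.8 and 50.4 CPM in S state cells. Its difference of 5.19 ± 0.29 (log2, SE) was the largest of the group (edgeR adjusted p = 7.57e-15), and the mitosis state was low again, at 7.79 and 2.84 CPM. Mcm10, which joins the helicase to polymerase alpha, rose from 1.77 and 1.53 CPM to 38.1 and 35.3 CPM. Its mitosis state pools, at 15.1 and 8.51 CPM, lay between those levels. Cdt1, the partner of Cdc6 in loading, was at 2.59 and 2.8 CPM against 49.5 and 56.2 CPM (19.4-fold, adjusted p = 2.94e-15). Cdt1 overlaps the gene model Gm20388 on the same strand, so reads shared by the 2 models may affect its level. Mcm7, a helicase subunit, had the smallest difference of the group, 2.61 ± 0.12 (adjusted p = 1.17e-16), from 30.1 and 25.8 CPM to 166 and 173 CPM.

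The 6 Mcm subunits form 1 ring, and their S state levels were 6.11-fold (Mcm7) to 18.3-fold (Mcm3) above neither state cells. Mcm6 was at 23.5 and 24.3 CPM in neither state cells, 217 and 230.5 CPM in the S state and 30.7 and 23.3 CPM in the mitosis state, where its log2 difference from neither state, 0.23 ± 0.16, did not pass (adjusted p = 0.333). Mcm5 was at 13.5 and 10.7, 195 and 139 and 45.3 and 30.1 CPM in the same order, and remained 1.68 ± 0.17 above neither state in the mitosis state (adjusted p = 4.42e-09). No test of Mcm5 against Mcm6 was made. Mcm2, Mcm3 and Mcm4 were 0.92, 1.16 and 0.66 above neither state there. Cdc45 and the GINS genes Gins1 and Gins2, which complete the active helicase, were 4.28, 3.43 and 3.97 higher in the S state. Gins2 differed between pools in the mitosis state, with 7.79 and 22.1 CPM against 6.4 and 5.15 CPM in neither state.

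**Figure D2:**
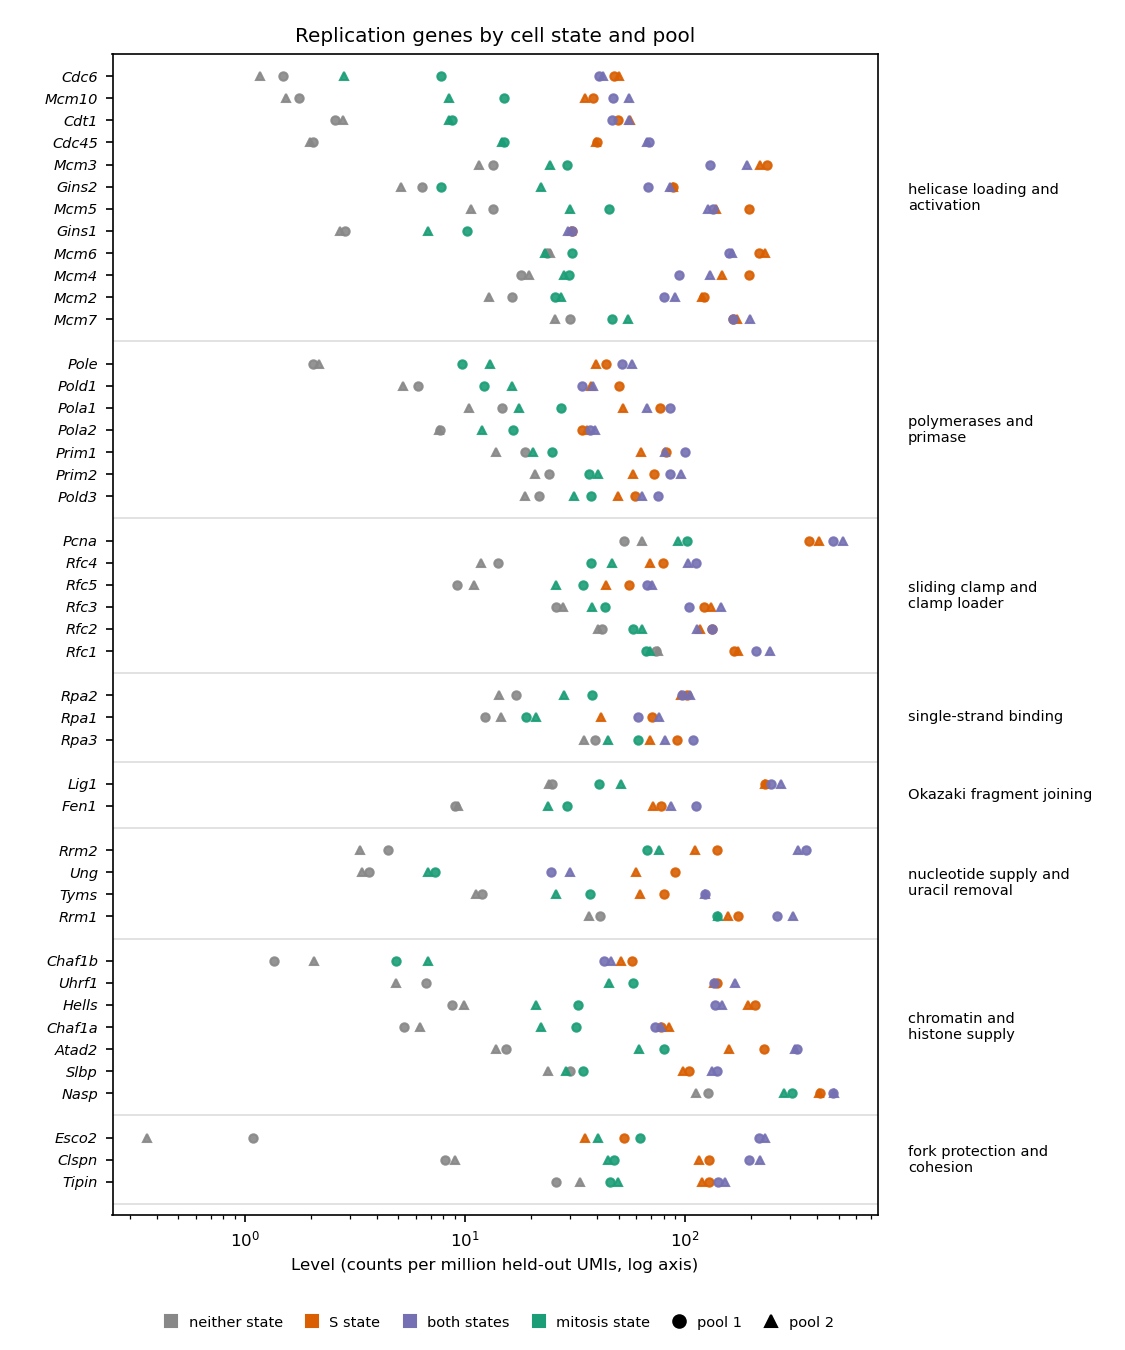
Level of each of the 44 genes (x axis, CPM of held-out UMIs, log axis) in neither, S, both and mitosis state cells of pool 1 (circles) and pool 2 (triangles), grouped by role and ordered by the S minus neither difference. In each of the 44 genes both S state points lie to the right of both neither state points, and for 43 genes they also lie to the right of both mitosis state points, Esco2 being the exception.

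Among the 7 polymerase and primase genes 7 of 7 were higher in the S state, with a median log2 difference of 2.18. Pole, the catalytic subunit of the leading strand polymerase epsilon, was at 2.04 and 2.17 CPM in neither state cells and 43.8 and 39.6 CPM in the S state, a difference of 4.28 ± 0.26 (SE, edgeR adjusted p = 5.97e-14). Pold1, the catalytic subunit of the lagging strand polymerase delta, was at 6.12 and 5.24 CPM against 50.3 and 37.5 CPM (7.69-fold, adjusted p = 2.12e-11). Pola1, the catalytic subunit of the primer-making polymerase alpha, went from 14.8 and 10.5 CPM to 77 and 52.6 CPM, and its pool 2 level was the lower in both states. Pold3, an accessory subunit of polymerase delta, differed least, with 21.8 and 18.7 CPM against 59.2 and 49.7 CPM (1.42 ± 0.16, adjusted p = 3.01e-08). The remaining 3, Pola2 and the primase subunits Prim1 and Prim2, had differences of 2.18, 2.15 and 1.53. Subunits of 1 enzyme had unlike differences, which were not tested against each other.

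The sliding clamp and its loader had a median difference of 2.25, and 6 of 6 genes were higher in the S state. Pcna, the clamp, was at 52.9 and 63.8 CPM in neither state cells and 367 and 406 CPM in S state cells (6.6-fold, edgeR adjusted p = 8.08e-20). It was at 103 and 93.1 CPM in the mitosis state, between the other levels. Pcna has processed pseudogenes in the annotation (Pcna-ps1 and Pcna-ps2), and reads that also match them may affect its level. Rfc4 was at 14.2 and 11.8 CPM against 79.5 and 69.1 CPM (2.52 ± 0.16), and Rfc5 at 9.26 and 11 against 55.9 and 43.9 CPM (2.26 ± 0.20). Rfc1, the large subunit of the loader (chr5:65261850-65335670), was already at 73.8 and 75.6 CPM in neither state cells and at 168 and 175 CPM in the S state. Its 2.29-fold difference passed (adjusted p = 1.16e-10), but in the mitosis state it was at 66.7 and 69.2 CPM, where the difference of -0.09 ± 0.11 from neither state did not (adjusted p = 0.598). Rfc2 and Rfc3 were 1.59 and 2.24 higher in the S state.

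The 3 single-strand binding genes were higher in the S state by a median of 2.03. Rpa2 was at 17 and 14.4 CPM in neither state and 102 and 95.8 CPM in the S state (2.66 ± 0.14, edgeR adjusted p = 2.94e-15). Rpa1, the largest subunit, was at 12.4 and 14.5 CPM against 70.5 and 41.8 CPM, with pool 1 the higher in the S state (2.51 in pool 1 and 1.53 in pool 2 on the log2 scale). Rpa3, the smallest subunit, had the smallest difference of the 44 genes, 1.10 ± 0.13 (adjusted p = 1.28e-07), from 39.2 and 34.7 CPM to 91.6 and 69.1 CPM. The S state pools of the 3 subunits did not overlap with the neither state pools. Of the enzymes that join Okazaki fragments, the short pieces of the lagging strand, Lig1, the DNA ligase, was at 24.9 and 24.1 CPM in neither state and 231 and 232 CPM in the S state (3.24 ± 0.11, adjusted p = 7.42e-20). Fen1, which trims the flaps between fragments, was at 8.98 and 9.3 CPM against 77.8 and 72 CPM (3.01 ± 0.17, adjusted p = 4.78e-15).

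Nucleotide supply and uracil removal held 4 genes, 4 of which were higher in the S state, with a median of 3.48. Rrm2, the regulated subunit of ribonucleotide reductase, which makes deoxynucleotides (chr12:24708241-24714146), was at 4.49 and 3.34 CPM in neither state and 139 and 112 CPM in the S state (32.3-fold, edgeR adjusted p = 7.42e-20). In the mitosis state it was still at 67.2 and 76 CPM, 4.24 ± 0.18 above neither state on the log2 scale. Its partner subunit Rrm1 was at 41.2 and 36.8 CPM in neither state, 174 and 157 CPM in the S state and 139.7 and 141 CPM in the mitosis state. The S and mitosis states of Rrm1 differed by 0.19 ± 0.12, which did not pass (adjusted p = 0.323). Ung, which cuts uracil out of DNA (chr5:114130386-114139323), was at 3.67 and 3.43, 90.003 and 59.8 and 7.3 and 6.81 CPM in the same order, and had the largest S over mitosis difference of the 44 genes, 3.35 ± 0.27 (adjusted p = 3.71e-11). Tyms, thymidylate synthase, was at 12 and 11.2 CPM against 80.3 and 62.7 CPM (2.61 ± 0.16, adjusted p = 9.91e-14), with a processed pseudogene, Tyms-ps, that may share its reads.

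The 7 genes of chromatin and histone supply had a median difference of 3.79, and 7 of 7 were higher in the S state. Chaf1b, a subunit of the chaperone that deposits histones on new DNA, was at 1.36 and 2.08 CPM in neither state and 57.6 and 51.1 CPM in the S state (29.95-fold, edgeR adjusted p = 1.67e-15). Uhrf1, which brings DNA methylation to the new strand, was at 6.67 and 4.88 CPM against 140.3 and 135 CPM (4.60 ± 0.17). Hells, a chromatin remodeller, was at 8.71 and 9.93 CPM against 208 and 194 CPM (4.40 ± 0.14, adjusted p = 1.06e-20). These genes parted in the mitosis state, where Uhrf1 was at 58.4 and 45.4 CPM, Hells at 32.6 and 21 CPM and Chaf1b at 4.87 and 6.81 CPM. Nasp, a histone chaperone, had the smallest difference of the group, 1.78 ± 0.09 (adjusted p = 6.1e-16), from 128 and 112 CPM to 411 and 408 CPM, and has a processed pseudogene, Nasp-ps1. Chaf1a, the chromatin ATPase Atad2 and the histone mRNA binding protein Slbp were 3.79, 3.70 and 1.92 higher.

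Of the 3 genes of fork protection and cohesion, Esco2, the acetyltransferase that ties sister chromatids together (chr14:65819038-65833994), had 8 and 4 held-out UMIs in neither state cells, or 1.09 and 0.361 CPM. It was at 52.7 and 35.3 CPM in the S state and 62.8 and 40.3 CPM in the mitosis state, with S over neither at 5.96 ± 0.34 (edgeR adjusted p = 7.57e-15). Its S and mitosis state pools overlapped, and the difference of -0.29 ± 0.20 between them did not pass (adjusted p = 0.401). Clspn, an adaptor of the replication checkpoint, was at 8.17 and 9.03 CPM in neither state, 128 and 116 CPM in the S state and 47.7 and 44.8 CPM in the mitosis state (3.81 ± 0.15 for S over neither, adjusted p = 5.96e-19). Tipin, a fork protection factor, was at 25.9 and 33.2, 128 and 119.6 and 45.8 and 49.9 CPM, with 2.05 ± 0.13 for S over neither (adjusted p = 6.56e-14). For Clspn and Tipin the S state pools lay above the mitosis state pools, and those above the neither state pools.

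In mitosis state cells most replication genes lay between their neither state and S state levels. Against neither state cells, 40 of 44 genes were higher and 0 were lower by edgeR's test (41 higher at an unadjusted p under 0.05). Of the 10951 genes tested, 15.7% were called higher and 13.0% lower. By definition mitosis state cells could hold 1 gene of the S list and neither state cells none. The part of this in the differences was not tested. The median difference was 1.35, against -0.0016 over the genes tested, and Esco2 (6.25), Rrm2 (4.24), Uhrf1 (3.25), Cdc45 (2.91) and Mcm10 (2.88) had the largest. Mcm6, Rfc1, Rpa1 (0.59 ± 0.24, adjusted p = 0.0615) and Slbp (0.28 ± 0.16, adjusted p = 0.189) did not pass. These 4 depended on the settings: of 11 others, Rpa1 was called higher in 4, Mcm6 in 3, Slbp in 2 and Rfc1 in 1. Their largest differences, 1.02, 0.71, 0.80 and 0.40, came with cells thinned to 1000 UMIs before states were called. Slbp was at 30.2 and 23.8 CPM in neither state, 105 and 97.9 CPM in the S state and 34.6 and 28.9 CPM in the mitosis state, with overlap between the first and last. Mitosis state cells had more likely doublets by score (5.39% and 6.94%, against 2.82% and 2.82% in neither state). Without the likely doublets 34 genes passed, where 14.9% of genes tested were called higher, and the median was 1.09. With sums made per cluster, only the 2 clusters 1 and 5 had enough cells of each state, with 10 to 14 mitosis state cells per cluster and pool. There 0 of 22 genes passed, with a median of 0.50, where 1.18% of 3897 genes tested were called higher. Left out was cluster 6, where 59.5% and 56.1% of the cells deep enough were in the mitosis state.

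Set directly against each other, S state cells were above mitosis state cells in 42 of 44 genes and below in 0 (also 42 and 0 at an unadjusted p under 0.05), where 5.46% of genes tested were called higher and 6.77% lower. The median difference was 1.53 over the 44 genes and -0.0044 over the genes tested. By role the median was 2.33 for helicase loading and activation, 1.88 for Okazaki fragment joining, 1.53 for chromatin and histone supply, 1.49 for polymerases, 1.43 for single-strand binding, 1.32 for fork protection, 1.14 for clamp and loader and 0.95 for nucleotide supply. After Ung, the largest differences were those of Chaf1b (3.18 ± 0.29, adjusted p = 8.27e-10), Cdc6 (3.12 ± 0.32, 6.2e-09), Mcm3 (3.03 ± 0.17, 7.43e-15) and Mcm6 (3.00 ± 0.14, 1.95e-16). Nasp, at 305 and 281 CPM in the mitosis state, had the smallest difference that passed, 0.44 ± 0.09 (adjusted p = 0.00134), and Rrm1 and Esco2 did not pass. The comparisons with neither state share those cells, so the 3 are not independent of one another.

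**Figure D3:**
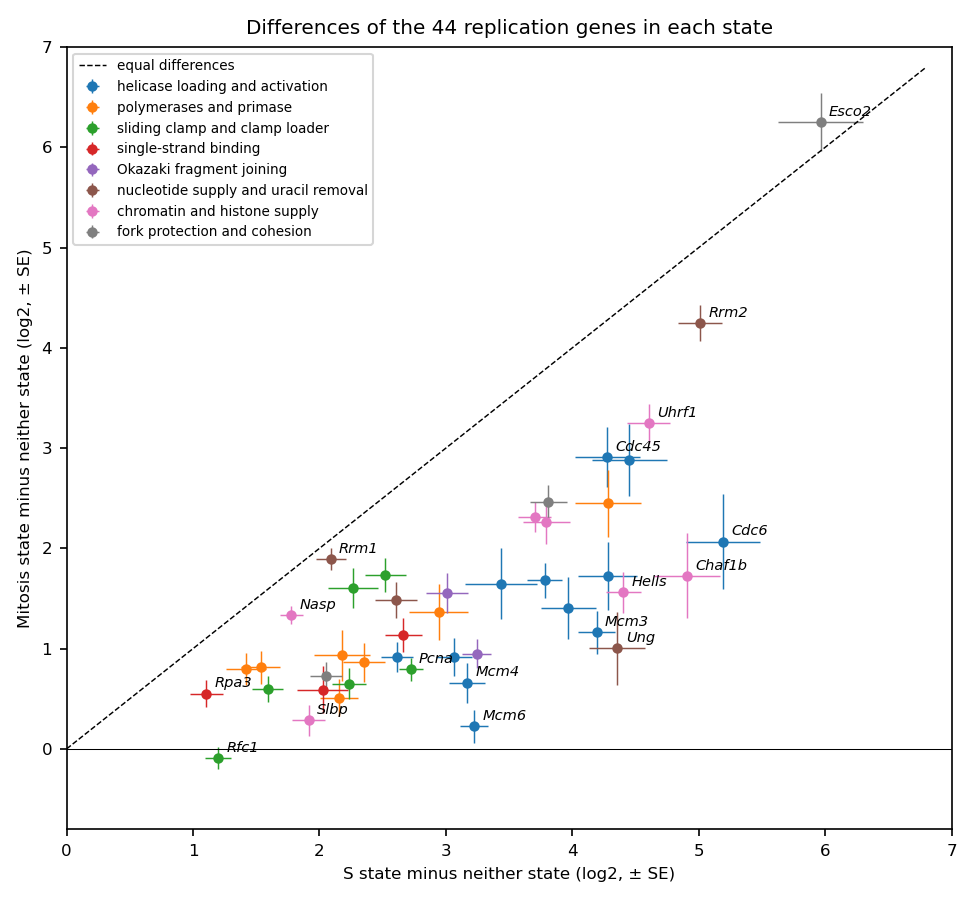
Log2 difference from neither state cells in the S state (x axis) and in the mitosis state (y axis) for each of the 44 genes, coloured by role, with SE bars and a dashed line of equal differences. Points lie below the line except Esco2 (5.96 and 6.25), and Rrm1 and Nasp lie nearest to it among the others, while Mcm6, Rfc1 and Slbp lie near 0 on the y axis.

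Cells with both states, which had S and mitosis genes together, split the 44 genes. In a comparison added after these values were seen, 13 genes were higher than in the S state and 5 were lower, where 5.63% of genes tested were called higher and 1.57% lower, with a median of 0.29 against -0.0095 over the genes tested. Esco2 was at 217 and 232 CPM with both states against 52.7 and 35.3 CPM in the S state (2.43 ± 0.17, edgeR adjusted p = 1.26e-12). Rrm2 was at 356 and 326 CPM against 139 and 112 CPM (1.52 ± 0.12, adjusted p = 1.63e-11). Both pools of these 2 genes were higher with both states, without overlap. The others higher were Cdc45 (0.85), Prim2 (0.54), Pcna (0.43), Rfc1 (0.47), Rfc4 (0.61), Fen1 (0.48), Rrm1 (0.85), Tyms (0.86), Slbp (0.50), Atad2 (0.80) and Clspn (0.84).

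In the other direction, Ung was at 24.7 and 30.2 CPM with both states against 90.003 and 59.8 CPM in the S state (-1.38 ± 0.23, edgeR adjusted p = 5.64e-05). The helicase subunits Mcm3 (-0.45), Mcm4 (-0.55) and Mcm6 (-0.41) and the remodeller Hells (-0.43) were lower too. Mcm2, at 80.1 and 90.6 CPM against 122 and 119.6 CPM, and Mcm5, at 134 and 127 against 195 and 139 CPM, lay below their S state level in both pools but did not pass (adjusted p = 0.0611 and 0.202), and Mcm7 was on opposite sides in the pools. Cdc6 and Cdt1, the loaders, differed by -0.18 ± 0.23 and 0.02 ± 0.20, neither of which passed. In 11 other settings of the analysis, Esco2, Rrm2, Rrm1, Tyms and Atad2 were called higher in every one and Ung lower in every one. Cells with both states held 4.79% and 4.76% likely doublets by score, against 3.21% and 3.97% in the S state, and without them 13 genes were called higher and 4 lower. The count depended on the processing: over the 11 alternatives that kept both pools, 5 to 15 genes were called higher and 1 to 6 lower, with 7 higher and 1 lower both with DESeq2 and without the pool in the model.

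**Figure D4:**
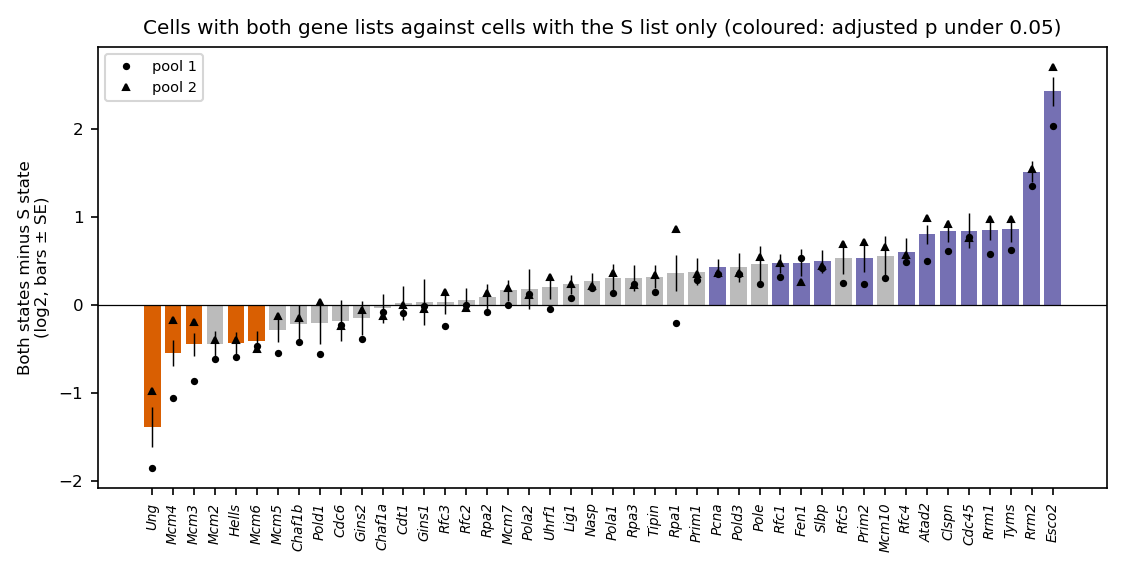
Log2 difference between cells with both states and S state cells for each of the 44 genes (bars ± SE, ordered by size), with the value in each pool as points and colour where the adjusted p was under 0.05. Ung (-1.38) stands at the low end beside Mcm4, Mcm3, Mcm2, Hells and Mcm6, and Rrm2 (1.52) and Esco2 (2.43) at the high end.

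Of 31 further replication genes, 30 could be tested and 23 were higher and 1 lower in the S state, with a median of 1.28. Gmnn, the inhibitor of Cdt1, was at 10.6 and 7.22 CPM in neither state and 101 and 99.4 CPM in the S state (3.52 ± 0.16, edgeR adjusted p = 2.44e-17). Pole2, a polymerase epsilon subunit, and Dna2, a nuclease of Okazaki fragments, had differences of 3.71 ± 0.35 and 3.51 ± 0.30. Pold4, the small subunit of polymerase delta, went the other way, with 45.6 and 37 CPM in neither state and 23.5 and 25.2 CPM in the S state (-0.75 ± 0.18, adjusted p = 0.00462). The pools of Pold4 did not overlap. Rrm2b, the ribonucleotide reductase subunit used outside S phase (-0.23 ± 0.21, adjusted p = 0.548), and the origin recognition gene Orc5 (-0.16 ± 0.30, 0.794) did not pass. Dbf4, the activator of the kinase Cdc7, was higher in the mitosis state, at 127 and 109.5 CPM, than in the S state, at 20.3 and 33.1 CPM (-2.17 ± 0.18, adjusted p = 1.24e-10). Orc1 was too low to test, with 12 and 6 held-out UMIs in S state cells.

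Across clusters formed without any of these genes, the replication genes marked 2 clusters. Other cell cycle genes could still take part in the clustering, so the clusters were not independent of the cell cycle. CPM levels of the 44 genes by cluster are from all counts, while tests among clusters used the held-out part. Cluster 8, led by histone genes, held 108 and 97 cells. Of the 107 and 93 deep enough for a state call, 76.6% and 73.1% had both states. Its summed level was 6317 CPM (exact Poisson 95% interval 6215 to 6420) in pool 1 and 6243 CPM (6141 to 6347) in pool 2. Cluster 6, led by mitosis genes (293 and 244 cells), had 3266 and 3084 CPM, and the other 8 clusters of at least 20 cells per pool had 787 to 1486 CPM. In each pool 43 of the 44 genes had their highest level in cluster 8, and cluster 6 came next for 42. The exception was Ung in both pools. Ung was at 26.6 and 17.5 CPM in cluster 8 and 32.7 and 27.8 CPM in cluster 6, with 2.32 to 15.1 CPM in pool 1 and 3.91 to 16.5 CPM in pool 2 in the other clusters.

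By the test over all clusters, 44 of 44 genes differed (edgeR adjusted p under 0.05), where 67.1% of the 11548 genes tested did. Against the mean of the other clusters, 44 of 44 were higher in cluster 8, with a median of 2.33 (15.8% of genes tested were called higher), and 44 of 44 in cluster 6, with a median of 1.45 (13.6% called higher). Esco2 was at 272 and 258 CPM in cluster 8 and 70.2 and 40.1 CPM in cluster 6, and the other clusters ranged from 0.459 to 11.6 CPM in pool 1 and 0.369 to 4.09 CPM in pool 2. Its differences were 6.82 ± 0.21 SE, adjusted p = 1.13e-20 and 4.32 ± 0.26 SE, adjusted p = 9.9e-14, the largest of the 44 in each. Rrm2 was at 391 and 347 CPM and 117 and 98.1 CPM against 5.79 to 21.7 CPM in pool 1 and 3.91 to 13 CPM in pool 2 in the other clusters. In cluster 6 the smallest difference was that of Rfc1, 0.37 ± 0.10 SE, adjusted p = 0.0114, with 103 and 106 CPM against 59.7 to 90.1 CPM in pool 1 and 67.2 to 94.6 CPM in pool 2 in the other clusters. In cluster 8 it was that of Ung, 1.15 ± 0.34 SE, adjusted p = 0.0141.

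By the median of the 44 genes the remaining clusters lay below the mean of the others, from -0.996 in cluster 4 to -0.137 in cluster 5, except cluster 7 (0.054). Cluster 6 and cluster 8 raise that mean. Genes called lower numbered 32 in cluster 4 (24.1% of genes tested were called lower), 28 in cluster 2 (3.08%), 14 in cluster 1 (13.2%), 11 in cluster 9 (9.53%), 5 in cluster 0 (10.4%), 5 in cluster 3 (3.31%), 1 in cluster 5 (4.38%) and 1 in cluster 7 (0.286%). In cluster 0 Pola1 was called higher (0.71 ± 0.22 SE, adjusted p = 0.0213), where 8.45% of genes tested were called higher. Without clusters 6 and 8, an alternative added after seeing the data, 27 of 44 genes differed among clusters, where 58% of 11358 genes tested did. In it 10 genes were higher in cluster 5 (9.42% of genes tested were called higher), 9 in cluster 7 (1.02%), 7 in cluster 0 (7.92%), 5 in cluster 1 (19.2%), 2 in cluster 3 (6.81%), 2 in cluster 4 (25%) and 1 in cluster 9 (11.3%). Lower were 16 in cluster 4 (20.8% of genes tested were called lower), 3 in cluster 1 (16.4%) and 1 in cluster 9 (10.5%). Cluster 7 was led by heat shock and immediate early genes, and Chaf1b (1.75 ± 0.38 SE, adjusted p = 0.0209), Mcm5 (1.07 ± 0.22 SE, adjusted p = 0.0156) and Mcm3 (0.92 ± 0.19 SE, adjusted p = 0.0139) were among its 9. The decreases in cluster 4 were led by Rfc4 (-1.66 ± 0.35 SE, adjusted p = 0.000363) and Rpa3 (-1.20 ± 0.26 SE, adjusted p = 0.000507). Clusters 0 and 4 held shallow cells, with medians of 1802 to 4228 UMIs, against 8354.5 to 20846 in clusters 1 to 3 and 5 to 9, and a median mitochondrial share of 2.88% to 4.86%, against 0.685% to 3.64%. The part of depth and RNA quality in their differences was not tested. With clusters 0 and 4 left out, also an alternative added after seeing the data, genes called lower numbered 36 in cluster 2 (6.96% of genes tested were called lower), 19 in cluster 9 (11.5%), 16 in cluster 1 (9.46%), 14 in cluster 3 (7.27%), 11 in cluster 5 (5.12%) and 2 in cluster 7 (1.22%).

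**Figure D5:**
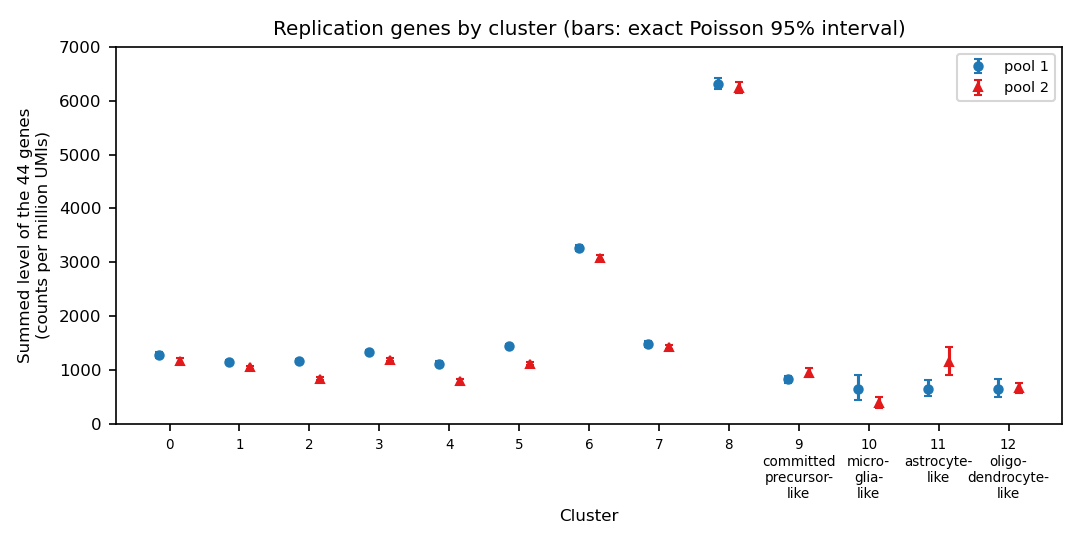
Summed level of the 44 genes (y axis, CPM) in each of 13 clusters (x axis) for pool 1 and pool 2, with exact Poisson 95% intervals that cover counting error only. Cluster 8 (6317 and 6243 CPM) and cluster 6 (3266 and 3084 CPM) stand above the other clusters in both pools, which lie between 390 and 1486 CPM.

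Cluster 9, like committed oligodendrocyte precursors, which are leaving the dividing state (63 and 38 cells, led by Enpp6 and Bmp4), had 825 CPM (765 to 888) and 946 CPM (869 to 1027). Rrm2 (-2.66 ± 0.72 SE, adjusted p = 0.00731), Chaf1a (-2.05 ± 0.68 SE, adjusted p = 0.0292) and Mcm5 (-1.95 ± 0.52 SE, adjusted p = 0.00648) had the largest of its 11 decreases. These are against a mean that clusters 6 and 8 raise. By edgeR's test without clusters 6 and 8, Rrm2, Chaf1a and Mcm5 were not called in cluster 9. Lig1 alone was lower there (-1.34 ± 0.42 SE, adjusted p = 0.0197), where 10.5% of genes tested were called lower. Esco2 alone was higher (2.56 ± 0.89 SE, adjusted p = 0.0393), where 11.3% were called higher. Its level was low, at most 11.6 CPM in pool 1 and 4.09 CPM in pool 2 in any tested cluster other than 6 and 8. Of the cluster 9 cells deep enough for a state call, 1.96% in pool 1 and 0% in pool 2 were in the mitosis state. As many had both states. The part of these cells in the Esco2 call was not tested. Mcm5 was at 11.6 and 16.9 CPM in cluster 9 and 29.6 and 14.6 CPM in cluster 2. Microglia-like cells (13 and 16 cells) had 642 CPM (442 to 902) and 390 CPM (295 to 505), oligodendrocyte-like cells (4 and 20 cells) had 649 and 660 CPM, and astrocyte-like cells (17 and 10 cells) had 655 and 1140 CPM. These 3 had too few cells to test.

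When the comparison was limited to cells in neither state, clusters 6 and 8 fell out for lack of such cells. Of their cells deep enough for a state call, 1.56% and 3.14% in cluster 6 and 0% and 0% in cluster 8 were in neither state. Few differences were called among the clusters that stayed. Over all kept cells without clusters 6 and 8, 27 of 44 genes had differed, where 58% of genes tested did. Of 32 genes high enough to test, 2 differed among the 8 clusters with enough cells, Lig1 and Rfc3 (5 at an unadjusted p under 0.05), where 43.1% of the 10537 genes tested did. By edgeR's test 1 gene, Lig1, was higher in cluster 3 (0.82 ± 0.24 SE, adjusted p = 0.0301), where 5.43% of genes tested were called higher. Lig1 was also the 1 gene higher in cluster 7 (1.13 ± 0.26 SE, adjusted p = 0.0319), where 0.351% were. In cluster 4 Rpa3 (-1.15 ± 0.35 SE, adjusted p = 0.00844) and Rfc4 (-1.70 ± 0.65 SE, adjusted p = 0.0379) were lower, where 15.5% of genes tested were called lower, although neither of the 2 passed the test over all clusters. The genes were at a median of 17.3 CPM in these cells against 33.3 CPM over the genes tested, and the other 12 of the 44 were too low to test. With all counts in place of the held-out part, 12 of 37 differed, where 50.1% of genes tested did.

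The genes outside the 44 whose level followed their sum most closely over the 20 libraries of pool and cluster, among 7035 genes of at least 20 CPM not used for clustering or states, were Dnajc9 (Pearson r = 0.959), Dek (0.959), Psmc3ip (0.955), Cenpk (0.943), Usp1 (0.942), Fbxo5 (0.940), H1fx (0.938) and Ccdc34 (0.938). Dnajc9 ranged from 26.1 to 264 CPM over these libraries and Dek from 115 to 1019.7 CPM. The libraries of a pool share tumours and depth, so these values describe these libraries. Genes with an E2F motif match in the promoter window had a median S minus neither difference of 3.51 (14 genes, 1.42 for Pold3 to 5.19 for Cdc6), and those with none had 2.61 (21 genes, 1.10 for Rpa3 to 5.01 for Rrm2). The ranges of the groups with and without a match overlapped over most of their length, and among those without were Rrm2, Chaf1b and Ung.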

How the data were processed

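Gene expression was measured in sorted glioma cells by droplet single-cell RNA sequencing of polyA RNA with 10x Genomics 3′ chemistry, version 3.1 Dual Index, from 4000 cells per pool, per the labels. The authors deposited UMI counts for each gene in each barcode, without normalization, from Cell Ranger 6.0.2 (per the submitters' processing notes, which name GRCm38 and mm10); the filters on cells and genes, and the use of strand in counting, were not given in the sources used here. Of the 44 genes, 9 overlap a protein-coding gene on the other strand (Cdc45, Chaf1a, Fen1, Gins2, Lig1, Mcm7, Rfc2, Rfc4 and Rfc5). Gene positions are from GENCODE vM21.

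Barcodes with fewer than 500 genes or over 15% mitochondrial UMIs (337 and 372) were left out. Doublets were not removed, since Scrublet called 0 and 2 where 2.80% and 2.62% of cells are expected, and an alternative left out the 98 and 86 cells of highest score. A binomial draw (probability 0.5) split every count into a training part, for states and clusters, and a held-out part, for tests. Training counts were thinned to 2000 UMIs per cell to call states, which left out 1148 and 833 shallow cells, and 539 and 517 cells that met no definition stayed out too. Of the S state cells, 81 and 61 had exactly 2 genes of the S list, the minimum. Clusters came from scanpy 1.11.5 (1000 variable genes, 30 components, 15 neighbours, Leiden resolution 0.8), without the 44 genes, the state lists, other replication genes, mitochondrial, ribosomal protein and sex chromosome genes, and were named by markers.

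Sums of held-out counts by pool and state (8 libraries, 3 residual degrees of freedom) or by pool and cluster (20 libraries, 9 residual degrees of freedom) were fitted over all genes with edgeR 4.0.16 in R 4.3.3 (quasi-likelihood, TMM, filterByExpr, pool as block), with Benjamini-Hochberg adjustment over the genes tested and a threshold of 0.05. The scripts were tested on simulated data. Each state comes from both pools, so p-values measure how far differences varied between these 2 pools and do not extend to other tumours. Full values are given for the genes with the 3 largest and the smallest S minus neither difference within each role. The 44 genes, the other lists and the tests were chosen with earlier results of these data known. DESeq2 1.42.0, other scalings, filters, state definitions, cluster settings and another random division were tried as alternatives. Matches to the promoter table were by symbol, and Prim2, Gins1, Gins2, Rfc2, Atad2, Tipin, Pole, Esco2 and Mcm4 had none.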

Additional observations from a re-analysis of the deposited data

How the results depend on the processing

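The 44 genes were called higher in the S state than in neither state in 11 of 11 other settings on pool sums, 31 were called higher in the mitosis state in each of them, and 36 were called higher in the S state than in the mitosis state. Of all genes tested, these settings called 3.88% to 12.2%, 6.52% to 18.5% and 1.52% to 7.46% higher in the same order. The median S minus neither difference was 3.35 with states set from 3 or more genes, and 2.93 to 3.07 with 1 pool left out. Sums made per pool, cluster and state left 22 genes to test in the 2 clusters 1 and 5, with 10 to 14 mitosis state cells per cluster and pool. Of these genes, 20 were called higher for S over neither (median 2.66, 2.69% of 3897 genes tested). For mitosis over neither 0 were (median 0.50, 1.18%), and for S over mitosis 16 were (median 2.37, 1.03%). In that fit the mitosis minus neither differences of Mcm7 (-0.27), Rfc4 (-0.46), Lig1 (-0.051), Clspn (-0.17) and Tipin (-0.45) were below 0, and none of these passed.

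The median mitosis minus neither difference was 1.31 with no scaling beyond the library total, 1.65 with states set from 3 or more genes, 1.46 with cells thinned to 1000 UMIs, 1.29 with another random division, 1.30 with at most 5% mitochondrial UMIs, 1.09 without likely doublets, and 1.14 to 1.16 with 1 pool left out. Rfc1 turned from -0.09 to 0.17 with states from 3 genes, which did not pass, and to 0.40 with thinning to 1000 UMIs, which did (adjusted p = 0.00288). The median S minus mitosis difference was 1.61 with states from 3 genes, where Esco2 turned to 0.44, and 1.29 with thinning to 1000 UMIs, 1.76 with another division and 1.68 without likely doublets.

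For both states against the S state, DESeq2 and the fit with no replicate block, in which pool left the model, each called 7 genes higher and 1 lower. States from 3 genes gave 5 higher (median 0.050), thinning to 1000 UMIs 6 higher and 3 lower (median 0.0045, with Rfc4 at -0.15), another division 7 higher (median 0.13) and at most 5% mitochondrial UMIs 3 lower. Over the 11 settings 2.91% to 7.08% of genes tested were called higher and 0.155% to 2.70% lower. Its median was 0.13 to 0.25 with 1 pool left out. Among clusters, 27 genes were called without clusters 6 and 8, and in neither state cells 6 of 44 were called with no filter on low counts (28.7% of genes tested), 12 of 37 with all counts (50.1%), 1 of 34 at resolution 0.4 (13.5%), 4 of 33 with at most 5% mitochondrial UMIs (35.9%) and 5 of 35 with another division (32.0%). The cause of these changes was not tested. Each state and cluster was compared within pools, with pool as the block, and leaving the block out changed the counts of members called in the other comparisons by less than 1.5 times. Between states the share of all genes tested that was called fell more. The share called higher went from 9.08% to 5.11% for S over neither, 15.7% to 8.61% for mitosis over neither and 5.46% to 1.52% for S over mitosis. The share called lower went from 4.05% to 0.566%, 13% to 3.98% and 6.77% to 2.82% in the same order. Low levels limit the tests in neither state cells, where 12 of the 44 genes could not be tested.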
